A study of Glycine max with 8 samples.

Results

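Common soybean (Glycine max) reference genes are the transcripts against which quantitative PCR results in this plant are usually expressed, and 6 of them were followed here through nodule RNA. The members were a fixed list of identifiers of genes used as references, and the rule for the list takes no measured value, although it was drawn up with earlier results of these data known: Cons4, SKIP16, ACT11, CYP2, UBI3 and ELF1B. All 6 were found among the 43517 genes counted, and all 6 were among the 29508 that passed the filter on low counts. The deposited tables give identifiers only, and the names, which were listed apart from the identifiers, were assigned to them in the order of the 2 lists, a pairing that no table used here states. The roles given below rest on it. By the chromosome number that the identifiers carry, Cons4, SKIP16 and CYP2 lie on chromosome 12, ACT11 on chromosome 18, UBI3 on chromosome 20 and ELF1B on chromosome 2.

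Nodules are root organs in which legumes house nitrogen-fixing rhizobia. RNA from nodules of plants at low nitrogen was sequenced in 2 groups of 4 libraries. Group BR had received the strain labelled Bac.B together with the strain labelled Bra.Q2, and group R had received Bra.Q2 alone, so that Bra.Q2 and low nitrogen were common to both. Whether the libraries of a group are separate plants is not in the labels, and p-values therefore cover the spread among these libraries, part of which may be technical. The nodule label was not checked against leghemoglobin genes, because no source used here names the identifiers.

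A reference gene is useful when its transcript keeps a constant share of the RNA across samples, since each measured gene is then divided by it. The usual references encode housekeeping proteins of unrelated function, so that a treatment is unlikely to move all of them in the same way. Actin 11 (ACT11) is a subunit of the actin cytoskeleton, ubiquitin 3 (UBI3) encodes the small protein that marks others for degradation, and ELF1B is elongation factor 1-beta, which recharges the factor that brings aminoacyl-tRNA to the ribosome. CYP2 is a cyclophilin, an enzyme that isomerises peptide bonds at proline. SKIP16 is an F-box protein, a class that selects substrates for ubiquitin ligases, and Cons4 is annotated as an ABC transporter, a class of ATP-driven carriers. RNA sequencing meets the same need for a common scale through library factors. Total-count scaling gives each library the same sum, whereas TMM (the trimmed mean of M values) sets the factor so that most genes do not change.

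Library totals ran from 15133989 to 17287964 counts in BR and from 14223489 to 15266510 in R. The choice of scaling bears on the comparison of the groups: total-count scaling placed the median log2 fold change of all tested genes, BR over R, at 0.18, and TMM placed it at -0.02, a shift of 0.19. Libraries R1 and R2 also differed from R3 and R4 in part of the genes, and the fold changes and spreads of members that moved with either pair are also given without it.

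The 6 genes spanned a wide range of abundance. Per unit of length, as deposited FPKM (fragment counts divided by gene length and by the library total), UBI3 stood first with 1463 ± 163.5 in BR and 1488 ± 229 in R, and CYP2 second with 117 ± 19.3 in BR and 146 ± 31.3 in R (SD, n = 4). The order of the remaining 4 differed between the groups. In BR it was ACT11 (35.0 ± 3.87 FPKM), ELF1B (30.8 ± 2.02), SKIP16 (25.8 ± 1.38) and Cons4 (20.4 ± 2.93), and no neighbours in this order had overlapping ranges. In R it was SKIP16 (37.9 ± 3.15 FPKM), ACT11 (30.5 ± 2.42), ELF1B (23.9 ± 2.24) and Cons4 (16.2 ± 2.12). There the ranges of SKIP16 and ACT11 overlapped, although SKIP16 was the higher in each of the 4 R libraries. In FPKM, SKIP16 thus lay above ACT11 and ELF1B in every R library and below both in every BR library. Library factors cannot alter this order, but the division by length bears on it, since SKIP16 had more counts than ELF1B in all 8 libraries.

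SKIP16 (Glyma.12G051100.Wm82.a2.v1), the F-box protein, was the member that changed. It had 41.3, 44.6, 44.2 and 45.3 CPM (counts scaled to a common library size, here by TMM) in BR1 to BR4, against 67.4, 74.7, 72.2 and 80.5 in R1 to R4. All BR libraries lay below all R libraries, with a gap wider than the spread inside either group. SKIP16 fell by 0.75 on the log2 scale (SE 0.12, 95% interval -1.01 to -0.48; edgeR quasi-likelihood test, adjusted p = 0.00452). With total-count scaling the log2 fold change was -0.55 (edgeR adjusted p = 0.0134), so the call did not depend on this choice. It also held at an adjusted p of at most 0.0199 in every other setting tried, each library left out in turn included. In bulk nodule RNA, fewer cells that express a gene and less of its RNA per cell cannot be told apart.

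CYP2 (Glyma.12G024700.Wm82.a2.v1), the cyclophilin, was lower on average in BR but varied within R. Its TMM-scaled levels were 110, 128, 155 and 143 CPM in BR1 to BR4, against 228, 229, 147 and 161 CPM in R1 to R4. R1 and R2 stood above all other libraries, whereas R3 and R4 lay inside or close to the BR range, with BR3 above R3. Its log2 fold change, -0.51 (SE 0.19, 95% interval -0.94 to -0.09), did not pass after adjustment (edgeR adjusted p = 0.0887). It was -0.75 without R3 and R4 (edgeR adjusted p = 0.0287, which passes) and -0.19 without R1 and R2 (edgeR adjusted p = 0.437). With total-count scaling it was -0.31 (edgeR adjusted p = 0.266).

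UBI3 (Glyma.20G141600.Wm82.a2.v1), the ubiquitin gene, was the most abundant member and took 0.252% of all counts. It had 2690, 2467, 1980 and 2232 TMM-scaled CPM in BR1 to BR4, against 2982, 2123, 2701 and 3074 in R1 to R4. The groups overlapped, with R2 below 3 of the 4 BR libraries. The log2 fold change was -0.22 with TMM (95% interval -0.62 to 0.19; edgeR adjusted p = 0.437) and -0.02 with total counts (95% interval -0.41 to 0.37; edgeR adjusted p = 0.938). With TMM it was -0.10 without R3 and R4 (edgeR adjusted p = 0.804) and -0.29 without R1 and R2 (edgeR adjusted p = 0.299). Ubiquitin and actin belong to families with similar copies in soybean, and the treatment of reads that match several copies is unknown. The levels of UBI3 and ACT11 are uncertain to that extent.

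ACT11 (Glyma.18G290800.Wm82.a2.v1), the actin gene, had almost equal means under TMM. Its TMM-scaled levels were 52.1, 63.5, 50.8 and 50.1 CPM in BR1 to BR4, against 52.2, 51.7, 52.0 and 60.1 CPM in R1 to R4. BR2 and R4 were the highest of their groups, and the other 6 libraries lay between 50.1 and 52.2 CPM. The log2 fold change was 0.0022 with TMM (95% interval -0.29 to 0.30; edgeR adjusted p = 0.993) and 0.20 with total counts (95% interval -0.10 to 0.49; edgeR adjusted p = 0.313). These intervals leave room for a change of up to about 0.30 in either direction under TMM.

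ELF1B (Glyma.02G276600.Wm82.a2.v1), the elongation factor subunit, and Cons4, the ABC transporter, had higher means in BR, by amounts that did not pass the test. ELF1B had 37.7, 32.3, 35.8 and 36.3 TMM-scaled CPM in BR1 to BR4, against 35.4, 33.2, 27.4 and 30.6 in R1 to R4. BR2 lay among the R libraries and R1 and R2 among the BR ones. Its log2 fold change was 0.17 with TMM (95% interval -0.12 to 0.45; edgeR adjusted p = 0.385). With total-count scaling all BR libraries, at 34.3 to 39.5 CPM, lay above all R libraries, at 26.1 to 32.4 CPM. The log2 fold change was then 0.36 (SE 0.12; edgeR adjusted p = 0.0646). With TMM it was 0.07 without R3 and R4 (edgeR adjusted p = 0.778) and 0.31 without R1 and R2 (edgeR adjusted p = 0.128).

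Cons4 (Glyma.12G020500.Wm82.a2.v1) had 33.6, 34.6, 41.0 and 43.8 TMM-scaled CPM in BR1 to BR4, against 36.6, 40.5, 29.1 and 33.2 in R1 to R4, with overlap between the groups. BR3 and BR4 were its highest libraries and R3 its lowest. The log2 fold change was 0.13 with TMM (95% interval -0.20 to 0.47; edgeR adjusted p = 0.563) and 0.33 with total counts (95% interval -0.01 to 0.67; edgeR adjusted p = 0.146). With TMM it was 0.01 without R3 and R4 (edgeR adjusted p = 0.969) and 0.31 without R1 and R2 (edgeR adjusted p = 0.179).

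**Figure D1:**
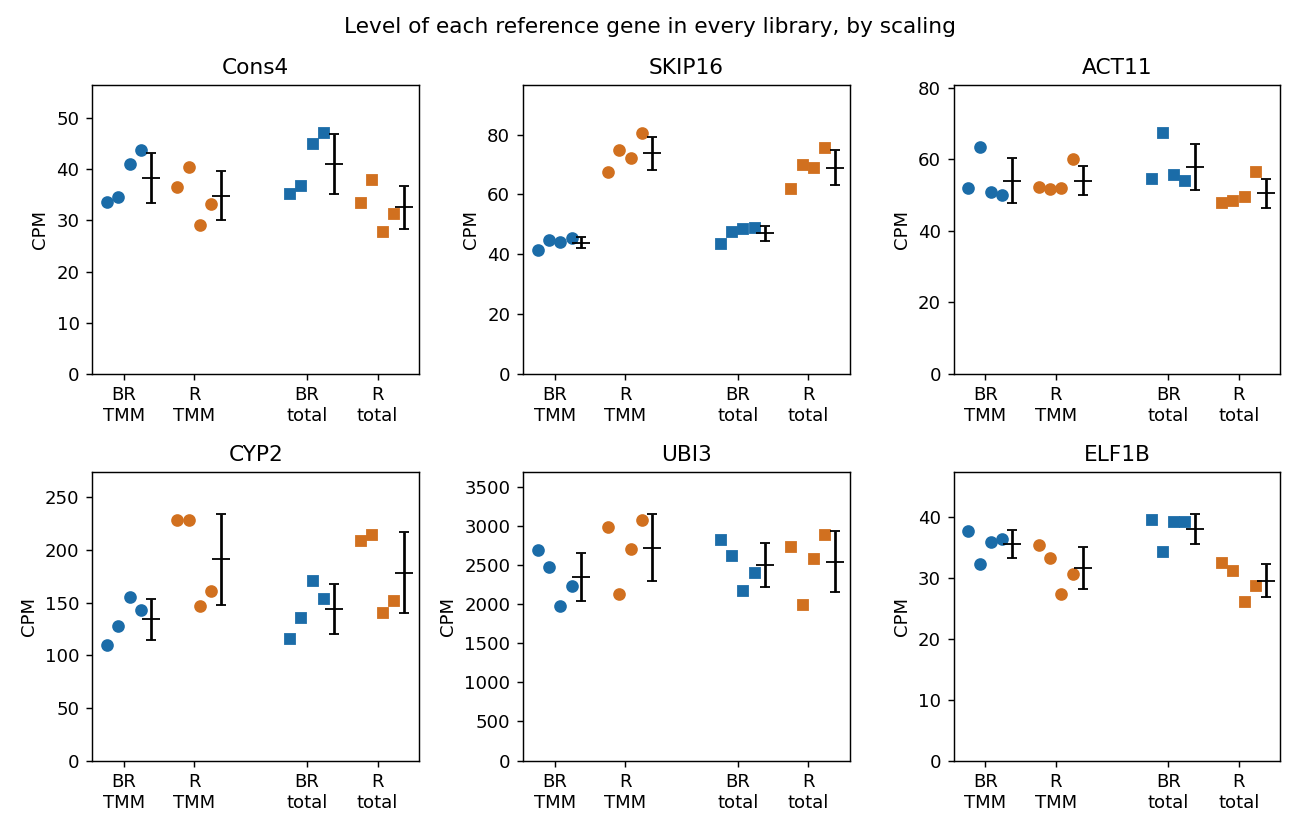
Scaled counts (CPM) of each of the 6 reference genes in every library, with TMM scaling (circles) and total-count scaling (squares), BR in blue and R in orange; black bars give the mean and SD of 4 libraries. SKIP16 separates the groups on both scales, ELF1B with total counts, and the other 4 overlap on both.

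Counted together, 1 of the 6 members was called with TMM, where 18.3% of all tested genes were called, and 1 of 6 was called with total-count scaling, where 20.4% were. These shares are close to the background and do not set the references apart from other genes. Groups without overlap were found for 1 member with TMM (24.5% of all tested genes) and for 2 with total counts (26.1% of all tested genes). The median log2 fold change of the 6 was -0.11 with TMM and 0.09 with total counts, beside -0.02 and 0.18 for all tested genes.

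**Figure D2:**
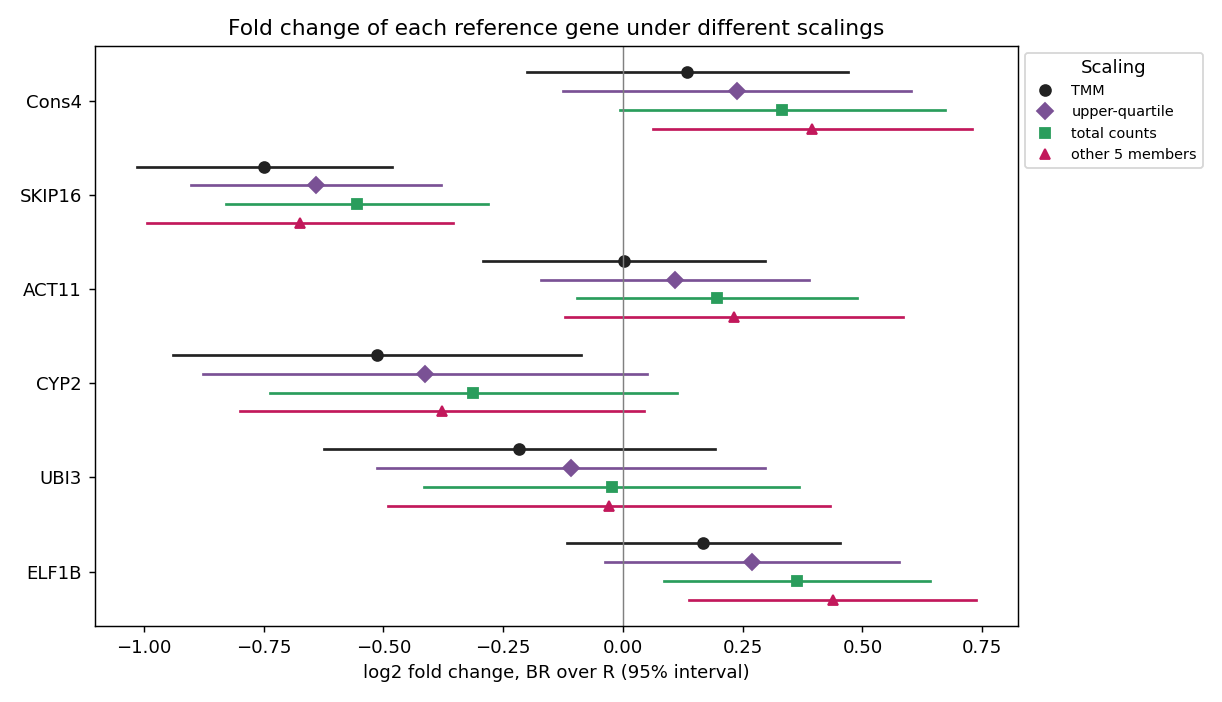
Log2 fold change of each reference gene, BR over R, with its 95% interval (horizontal axis) under TMM, upper-quartile and total-count scaling and scaled by the other 5 reference genes. Each step from TMM to total counts moves all 6 genes to the right by nearly the same amount, close to 0.19, and SKIP16 alone stays below 0 with its whole interval under all 4.

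The spread of a gene over all 8 libraries is the measure by which references are usually ranked. Over the 8 libraries ACT11 had the lowest SD of TMM-scaled log2 CPM, 0.125, and 1.62% of the tested genes had a lower one. ELF1B followed with 0.152 (3.88% of genes lower), Cons4 with 0.193 (9.92%) and UBI3 with 0.231 (17.2%). CYP2 had 0.371 (45.5%) and SKIP16 had 0.406, with 51.3% of the tested genes steadier, beside a median SD of 0.398 for all tested genes. Among genes within 0.5 log2 units of the same level the shares were 3.20% for ACT11, 8.17% for ELF1B, 18.02% for Cons4, 52.4% for CYP2 and 64.4% for SKIP16. Only 18 tested genes lay that near UBI3, and 1 of them was steadier.

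These places rested in part on single libraries. With TMM the share of genes steadier than ACT11 was 0.380% without BR2 but 3.36% without BR1, 2.93% without R2, 2.68% without R3 and 2.53% without R1. For ELF1B it was 1.08% without R3 and 6.53% without R2. For Cons4 it was 5.25% without R3 and 6.57% without BR4 but 14.1% without BR1. For UBI3 it was 10.96% without BR3 but 22.4% without BR1. ELF1B was steadier than ACT11 without R3, with an SD of 0.107 against 0.133, and without R3 and R4, with 0.0834 against 0.127. The high SD of CYP2 came with R1 and R2. Without that pair it was 0.203, with 15.5% of genes steadier, below the 0.215 of Cons4 and the 0.225 of UBI3, whereas SKIP16 had 0.417.

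Scaling changed the order of the members in part. With total counts the SDs were 0.160 for ACT11, 0.189 for UBI3, 0.224 for ELF1B, 0.254 for Cons4, 0.306 for CYP2 and 0.309 for SKIP16. Over all 8 libraries ACT11 was the steadiest and SKIP16 and CYP2 the least steady on both scales, while UBI3 passed ELF1B and Cons4. Without R2, however, UBI3 (0.143) was below ACT11 (0.159) with total counts, and without R3 and R4 ELF1B (0.154) was below ACT11 (0.179). Without R1 and R2 CYP2, at 0.192, was below ELF1B (0.258) and Cons4 (0.295). It was also below Cons4 without BR1 (0.264 against 0.274) and without R2 (0.269 against 0.273). The median over the 6 was 0.212 with TMM and 0.239 with total counts, beside 0.398 and 0.408 for all tested genes.

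Counting error made up little of this spread. The mean count per library ran from 530 for ELF1B and 578 for Cons4 through 848 for ACT11, 894 for SKIP16 and 2505 for CYP2 to 39219 for UBI3. Counting alone would give a coefficient of variation of 4.34% for ELF1B and 0.505% for UBI3, whereas the observed ones over 8 libraries were 10.2% and 15.8% with TMM. UBI3, read most deeply by far, was not the steadiest member with TMM.

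Within a treatment SKIP16 was among the steadier genes. Its SD of TMM-scaled log2 CPM was 0.0585 among the BR libraries, where 2.02% of tested genes had a lower one, and 0.106 among the R libraries, where 5.80% did. Among genes within 0.5 log2 units of its level the shares were 4.37% in BR and 11.5% in R. Its BR value was close to the 0.0483 that counting error alone would give at its mean count over the 8 libraries. The 51.3% over all 8 libraries came with the difference between the groups. CYP2 had the highest SD of the 6 members within each group, with 0.215 within BR (39.2% of genes lower) and 0.333 within R (50.4%). Beside all tested genes these were not high, since the medians were 0.257 within BR and 0.331 within R. Among genes within 0.5 log2 units of the level of CYP2, 47.8% were steadier within BR and 64.5% within R. ACT11 had 0.160 within BR and 0.104 within R, ELF1B 0.0953 and 0.159, Cons4 0.185 and 0.202, and UBI3 0.190 and 0.242.

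**Figure D3:**
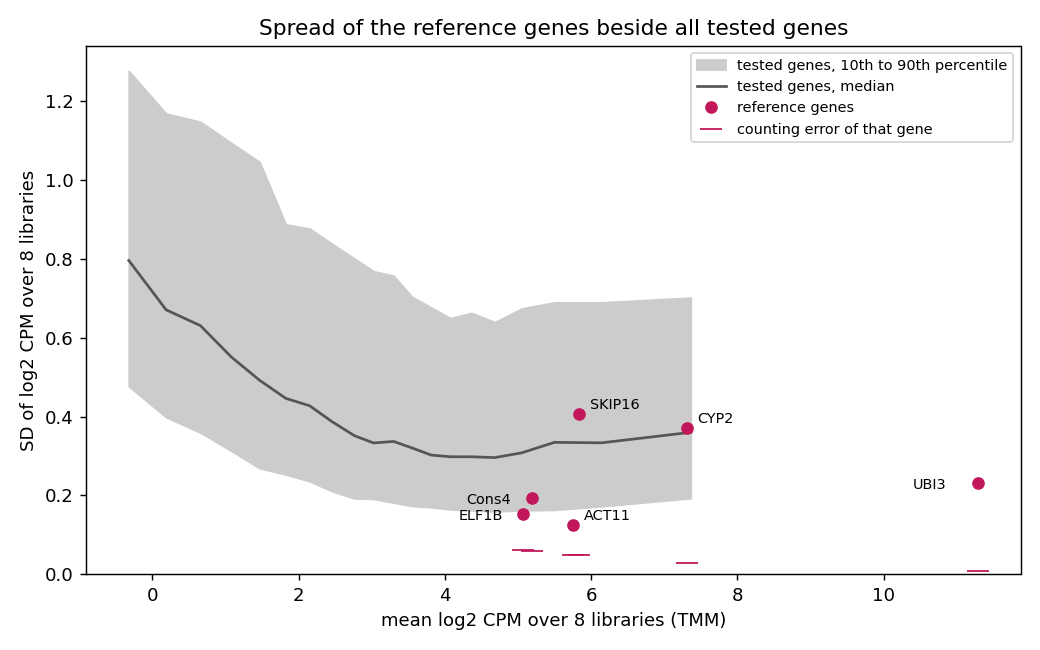
SD of TMM-scaled log2 CPM over the 8 libraries (vertical axis) against mean log2 CPM (horizontal axis) for the reference genes (points), with the counting error of each (dashes) and the median and 10th to 90th percentiles of all tested genes in 20 classes of abundance (line and band). ACT11 and ELF1B lie below the band, Cons4 lies near its lower edge, and SKIP16 and CYP2 lie above the median of genes at their level.

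Ratios between the members give a view that needs no scaling, because the library factor cancels. The SKIP16/ELF1B count ratio was 1.10, 1.38, 1.23 and 1.25 in BR1 to BR4, against 1.90, 2.25, 2.63 and 2.63 in R1 to R4, so that the groups did not overlap. On the log2 scale it was 0.30 ± 0.14 in BR and 1.22 ± 0.22 in R (SD, n = 4), a difference of -0.92. Groups were without overlap in 6 of the 15 pairs, beside 23.6% of all pairs of tested genes. SKIP16 was in 4 of these 6 pairs, against Cons4, ACT11, UBI3 and ELF1B, and CYP2 was in the other 2, against Cons4 and ELF1B. Pairs that share a gene are not independent, and this count therefore repeats the behaviour of a few genes.

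Each of these 6 pairs reached p = 0.0286 in an exact two-sided permutation test, the smallest p that 4 libraries against 4 can give, and adjustment over the 15 pairs gave 0.0714, which did not pass. Their differences in log2 ratio, BR minus R, were 0.88 for Cons4/SKIP16, 0.63 for Cons4/CYP2, -0.74 for SKIP16/ACT11, -0.54 for SKIP16/UBI3, -0.92 for SKIP16/ELF1B and -0.67 for CYP2/ELF1B, with all 4 BR libraries on one side in each.

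The steadiest ratio was that of Cons4 and ELF1B. It was 0.891, 1.07, 1.15 and 1.20 in BR1 to BR4, against 1.03, 1.22, 1.06 and 1.09 in R1 to R4, with an SD of 0.144 on the log2 scale over the 8 libraries and a group difference of -0.04 (exact two-sided permutation test, p = 0.771). The stability value M, the mean SD of a gene's log2 ratios to the other members, was lowest for ACT11 (0.310), followed by ELF1B (0.325), Cons4 (0.335), UBI3 (0.346), CYP2 (0.389) and SKIP16 (0.424). When the gene with the highest M was removed step by step, SKIP16 went first, then CYP2, UBI3 and ACT11, which left Cons4 and ELF1B. Both have higher means in BR, so a pair that keeps its ratio need not keep its level. Within BR alone SKIP16 had the lowest M, 0.171, and UBI3 the highest, 0.279. Within R alone ELF1B had the lowest, 0.206, and UBI3 again the highest, 0.329.

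**Figure D4:**
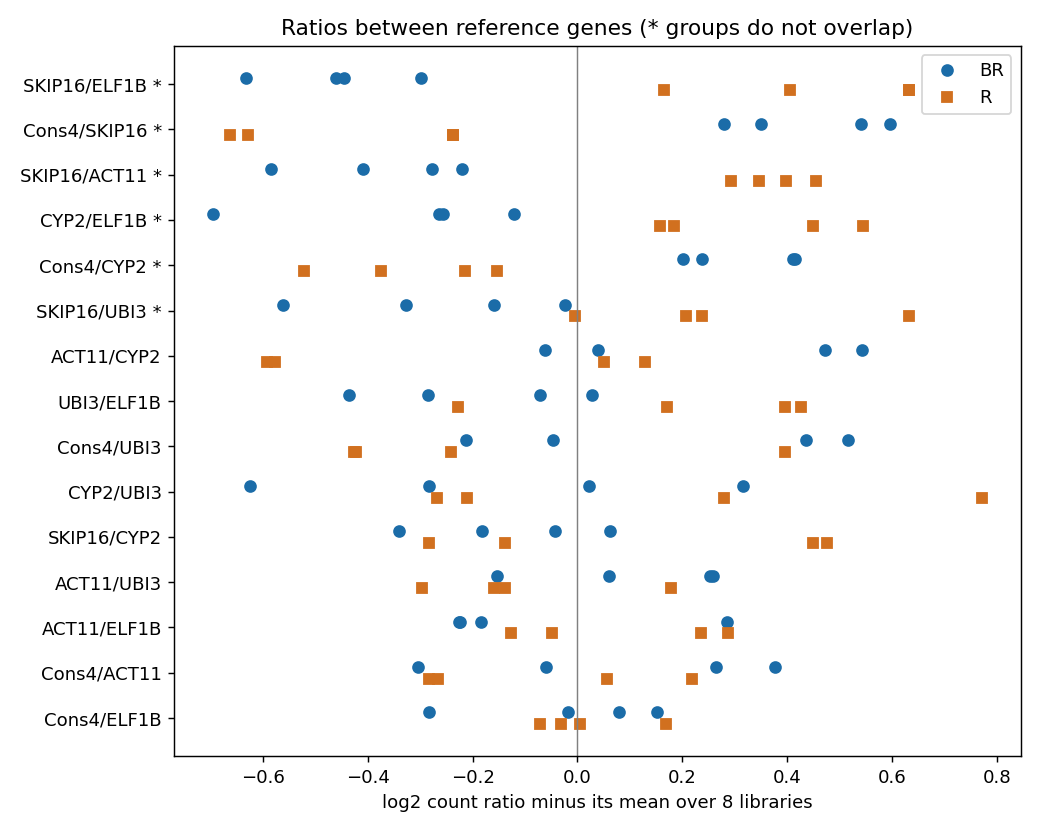
Log2 count ratio of each of the 15 pairs of reference genes in each library, minus its mean over the 8 libraries (horizontal axis), BR in blue and R in orange, sorted by the size of the difference between the groups. In the 6 pairs marked with a star the groups do not overlap, and SKIP16 is in 4 of them.

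Setting each member against the geometric mean of the other 5 took it out of its own scale in the edgeR test. SKIP16 was then lower in BR with a log2 value of -0.67 (SE 0.14; edgeR adjusted p = 0.0139) and ELF1B higher by 0.44 (SE 0.14; edgeR adjusted p = 0.0424). The remaining values were 0.40 for Cons4 (edgeR adjusted p = 0.0837), 0.23 for ACT11 (adjusted p = 0.327), -0.38 for CYP2 (adjusted p = 0.189) and -0.03 for UBI3 (adjusted p = 0.938). The members are compared only with each other on this scale, so the high value of ELF1B also holds the low value of SKIP16 in its denominator.

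The question of total counts against TMM was put to the 6 genes as a library factor, the geometric mean of their counts relative to the library total. It was 0.948, 0.996, 1.03 and 1.03 in BR1 to BR4, against 1.04, 1.02, 0.919 and 1.02 in R1 to R4, with overlap between the groups. TMM factors were 1.05, 1.06, 1.09 and 1.08 in BR1 to BR4, against 0.914, 0.936, 0.951 and 0.939 in R1 to R4, without overlap. On the log2 scale the offset between the groups, BR minus R, was 0.0030 for the reference genes, 0 for total counts by construction, 0.09 for upper-quartile, 0.19 for RLE and 0.19 for TMM. The point value of the 6 genes together thus lay next to total counts. It averages offsets of the single genes that ran from -0.55 to 0.37, with an SD of 0.368. That SD is larger than the 0.19 between total counts and TMM, so the 6 genes cannot decide between these scalings. The factor from 6 genes varied more inside the groups, with an SD of 0.0576 in BR and 0.0807 in R on the log2 scale, against 0.0275 and 0.0240 for TMM.

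The members taken singly did not agree on an offset. Against total counts the log2 offset was 0.37 for ELF1B, 0.33 for Cons4, 0.19 for ACT11, -0.02 for UBI3, -0.30 for CYP2 and -0.55 for SKIP16. The range of 0.92 was 4.73 times the 0.19 that separates TMM from total counts. Cons4, ACT11 and ELF1B lay nearer to TMM, and UBI3, CYP2 and SKIP16 nearer to total counts, 2 of them far below it. ACT11, the steadiest member by SD over the 8 libraries, had an offset that differed from that of TMM by -0.00187. The TMM-scaled SD includes the difference between the groups, so a low SD and an offset near that of TMM are partly the same result. This nearness was seen after its values were known, and its place as the steadiest was lost to ELF1B without R3 with TMM and to UBI3 without R2 with total counts.

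The joint offset moved with the choice of members. Leaving out each gene in turn gave offsets from -0.07, without ELF1B, to 0.11, without SKIP16. Without both SKIP16 and CYP2, a choice made after their values were seen and one that can only raise the offset, it was 0.22, above that of TMM. Leaving out single libraries moved it less, between -0.04 without R3 and 0.03 without BR1, and it was -0.04 without R3 and R4 and 0.05 without R1 and R2.

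**Figure D5:**
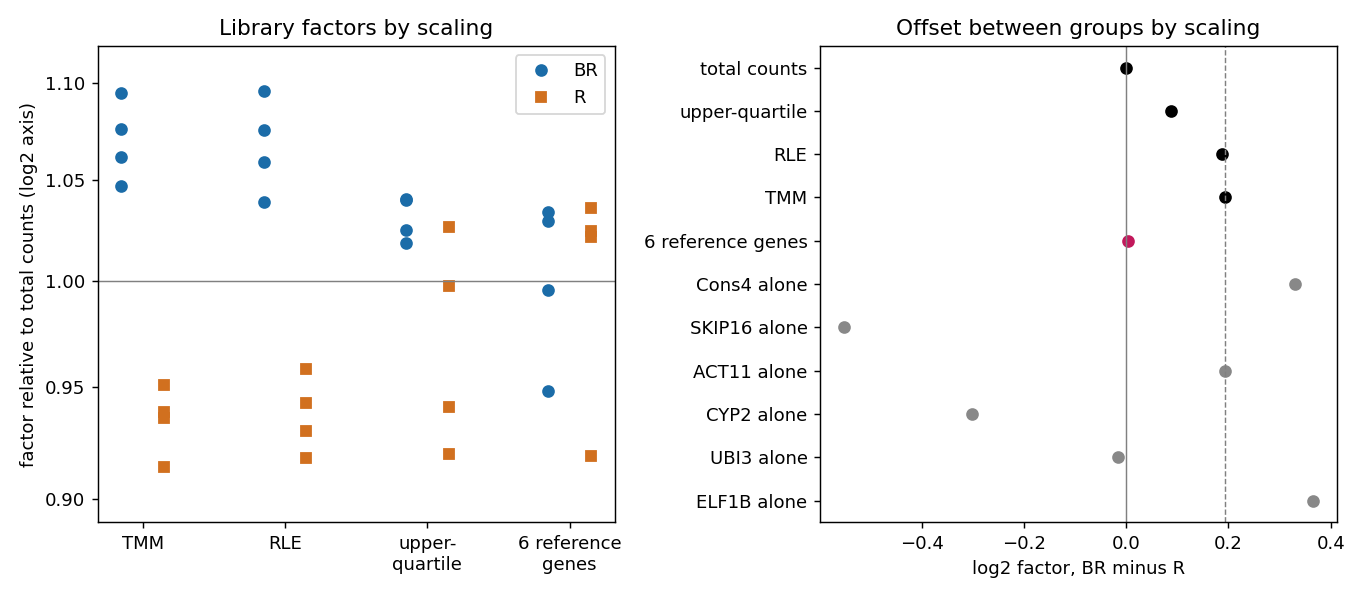
Left, the factor of each library relative to its total count (log2 axis) under 4 scalings, BR in blue and R in orange. Right, the log2 offset between groups, BR minus R, for each scaling and for each reference gene alone, with a dashed line at TMM. The groups separate with TMM and RLE and overlap with upper-quartile and the 6 reference genes. The single genes lie between -0.55 and 0.37, on both sides of total counts and of TMM.

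Used as the scale for all genes, the 6 references moved the balance of the calls. With reference gene scaling 5542 genes were called, or 18.8% of those tested, 3954 of them higher in BR and 1588 lower (71.3% higher; edgeR, adjusted p below 0.05). With total counts 4288 were higher and 1742 lower (71.1% higher), and with TMM 2355 higher and 3054 lower (43.5% higher). All 2355 genes higher with TMM were also higher with reference gene scaling, where they made up 59.6% of the higher calls. Of the genes lower with TMM 52.0% stayed called, and no gene was called in opposite directions by the 2 scalings. Reference gene scaling moved the median log2 fold change of all tested genes from -0.02 with TMM up to 0.17. With such a shift genes higher with TMM were likely to stay higher, and opposite calls were unlikely from the outset. Nothing is drawn from the full overlap of the higher calls or from the absence of opposite ones. The split followed the members used. The higher share of the calls was 78.4% without ELF1B, 77.7% without Cons4, 76.2% without ACT11, 71.7% without UBI3, 62.4% without CYP2 and 57.2% without SKIP16. Without both SKIP16 and CYP2 it was 40.2%, with 2000 higher and 2975 lower genes. Of the libraries, 4 moved the total by over 1.5 times when left out, to 3311 without BR1, 3021 without BR3, 3080 without BR4 and 3547 without R4, with higher shares of 69.9% to 74.4%. With TMM the 5409 calls became 3495 without BR1, 2847 without BR3, 2868 without BR4, 3535 without R3 and 3393 without R4. Without R1 and R2 the calls numbered 9744 with reference gene scaling (61.1% higher) and 10237 with TMM (50.4% higher), and without R3 and R4 they numbered 4797 (77.4% higher) and 3554 (46.5% higher).

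The tested genes whose pattern over the 8 libraries was most like the mean of the 6 members, by Pearson's r of TMM-scaled log2 CPM, were Glyma.06G051400.Wm82.a2.v1 (r = 0.97, n = 8 libraries) and Glyma.17G228800.Wm82.a2.v1 (r = 0.97). The first had 97.2 ± 5.80 CPM in BR and 137 ± 19.6 in R, and the second 158 ± 17.8 in BR and 236 ± 49.5 in R (SD, n = 4). Their SDs of log2 CPM were 0.301 and 0.383, so that both exceeded ACT11, ELF1B, Cons4 and UBI3, and the second also exceeded CYP2. The mean pattern itself ran from -0.14 in BR1 to 0.18 in R1 log2 units around its centre. All libraries share the TMM factors, which this likeness therefore includes. The members did not share 1 pattern: r between pairs of them ran from -0.71, for Cons4 with UBI3, to 0.68, for SKIP16 with CYP2. Members with a wide spread, such as SKIP16 and CYP2, weigh most in the mean.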

How the data were processed

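Per the labels' protocols, nodule RNA was isolated with Trizol and sequenced from VAHTS Universal V6 libraries. The authors deposited raw counts per gene, 1 column per library, and FPKM for 39910 genes. The submitters' processing notes list HTSeq 0.6.0, HISAT2 2.1.0, Bowtie2 2.2.3, TopHat2 and CASAVA, with no role or order, and the build and counting rules are unknown here. Counts divided by FPKM and library total gave 1 length per member in all libraries, so FPKM carry no further normalization.

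The deposited counts entered edgeR 4.0.16 in R 4.3.3 (filterByExpr, minimum count 10 and minimum total 15, TMM, quasi-likelihood F test, Benjamini-Hochberg over all 29508 tested genes, threshold 0.05), with no replicate block. Log2 CPM used a prior count of 2. Reference gene scaling took the geometric mean of the 6 members as library size. Alternatives used DESeq2 1.42.0, limma 3.58.1, other scalings and filters, FPKM with a pseudocount of 1 or 0.1, and libraries left out. The edgeR steps were tested on simulated data. Permutation tests used scipy 1.17.1.

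Members, lists and tests were chosen with earlier results of these data known. Named genes were the 6 members and the 2 most like their mean. The family lists and the leghemoglobin check were not made, since 0 of 43517 identifiers matched the gene table of assembly Glycine_max_v4.0. No sequences or coordinates are given. Between replicates, chi-square was at least 7.10 per degree of freedom, above counting noise. Counting intervals cover counting error only.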

Additional observations from a re-analysis of the deposited data

Results flagged for a closer look

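A single library lying far from the other 3 of its group was looked for in the levels of the members, their factor and their ratios, 56 groups in all, and 6 cases were found. Chance flags about 1 in 20 groups, and the measures overlap. BR2 gave 4 of the 6. In ACT11 it had 63.5 CPM with TMM and 67.4 CPM with total counts, above the other BR libraries. In ELF1B it had 34.3 CPM with total counts, below them, and its ACT11/ELF1B log2 ratio of 0.97 stood above theirs. R4 had 60.1 TMM-scaled CPM of ACT11, above the other R libraries at 51.7 to 52.2. The reference gene factor of R3 was 0.919, below those of R1, R2 and R4 at 1.02 to 1.04. Without BR2 the TMM-scaled log2 fold change of ACT11 was -0.09 (edgeR adjusted p = 0.694) and that of ELF1B 0.21 (edgeR adjusted p = 0.337). Without R4 that of ACT11 was 0.08 (edgeR adjusted p = 0.769).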

How the results depend on the processing

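SKIP16 kept its direction and its call in 23 of 23 settings (log2 fold change -0.79 to -0.54), and Cons4 and UBI3 were called in none. CYP2 passed in 1 setting, without R3 and R4, which made 2 members called there, and ELF1B passed only when scaled by the other 5 members. ACT11, near 0 with TMM, was at -0.0023 with limma-voom, -0.0019 with the replicate block, -0.038 without R1 and R2, and -0.0855 to 0.0762 with 1 library left out. The median fold change of the members was -0.00035 with upper-quartile scaling, 0.0859 with total counts, 0.0845 with reference gene scaling, and 0.0851, 0.0876 and 0.0851 in the FPKM tests (pseudocount 1, pseudocount 0.1, mean above 1). The reference factor offset was 0.11 without SKIP16, -0.0696 without ELF1B and 0.22 without SKIP16 and CYP2. Calls with reference gene scaling numbered 9744 without R1 and R2 and 3021 to 7490 with 1 library left out; fewer libraries enter these, and the cause of the rises was not tested. No ratio passed after adjustment in any setting. With 1 library left out the lowest p of the exact permutation test was 0.0571. Without R3 and R4, or without R1 and R2, it was 0.133. These are the smallest p that so few libraries can give, so no ratio could pass there and nothing is drawn from it. Among the ratios whose groups overlapped, the sign turned for Cons4/ACT11 (-0.0675), SKIP16/CYP2 (0.0861) and ACT11/ELF1B (0.0012) without R3 and R4. It also turned for CYP2/UBI3 (0.0972) without R1 and R2, and for Cons4/ELF1B, which lay between -0.0919 and 0.0530 with 1 library left out.

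With the replicate block SKIP16 had a log2 fold change of -0.75 (edgeR adjusted p = 0.0148) and reference gene scaling gave 5009 calls. The numbers were not taken as pairs, because the labels do not say that they mark pairs. Libraries of the same number had deviations that correlated at 0.07, 0.09, -0.08 and 0.09, and the block changed no member's call. The exact paired test of ratios cannot go below p = 0.125. Depth limits the members little: the highest counting error, that of ELF1B, was 4.34%. The scaling by the other 5 members and the joint removal of SKIP16 and CYP2 were chosen after seeing the data.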

Other observations

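Within R the members split the libraries in different ways. CYP2 had 3186 and 3174 counts in R1 and R2 against 1991 and 2218 in R3 and R4. ELF1B had 494 and 461 against 371 and 421, and Cons4 510 and 562 against 394 and 458. SKIP16 did not share this pattern, with 941, 1037, 977 and 1109 counts in R1 to R4, and neither did ACT11 or UBI3. The SKIP16/CYP2 ratio was accordingly 0.295 and 0.327 in R1 and R2 but 0.491 and 0.5 in R3 and R4, and the BR libraries, at 0.284 to 0.376, lay around R1 and R2. Across the 8 libraries TMM-scaled log2 CPM of Cons4 correlated with ELF1B at r = 0.68, SKIP16 with CYP2 at 0.68, SKIP16 with ELF1B at -0.66 and Cons4 with UBI3 at -0.71. These are descriptions over 8 libraries that share their TMM factors.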
